A study of Mus musculus with 5 samples.

Results

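Myostatin, activin and follistatin signalling is described here through 10 genes, taken by name from the 25873 named rows of a deposited expression table. The genes are the ligand genes Mstn and Inhba, the follistatin family genes Fst, Fstl3 and Fstl1, the type II receptor genes Acvr2a and Acvr2b, the type I receptor genes Acvr1b and Tgfbr1, and the inhibitory SMAD gene Smad7. All 10 were found, each in a single row. RNA was sequenced from tdTomato-positive, Lin-negative cells of the muscle lineage, which had been sorted from the limb muscle of C57BL/6J mouse fetuses at E16.5. Each library is called by its group and the tag of its column. The wild-type (WT) fetuses carried Pax7-CreER, a tamoxifen-activated recombinase made in Pax7-expressing progenitors, and the Rosa-tdTomato reporter that it switches on (2 libraries, WT Em2 and WT Em4). The Notch1 conditional knockout (cKO) carried the same alleles with floxed Notch1 (1 library, Em8), and the Notch2 cKO carried them with floxed Notch2 (2 libraries, Em3 and Em4). Mothers of every group were given oral tamoxifen (240 mg/kg), starting at E12.5 and lasting 2 days. Only cells that expressed Pax7 in that period, and their descendants, could lose a floxed allele.

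Myostatin and the activins are secreted dimers of the TGF-beta superfamily. They bind a type II receptor, ACVR2A or ACVR2B, which activates a type I receptor, ALK4 (the product of Acvr1b) or ALK5 (the product of Tgfbr1), and that receptor phosphorylates SMAD2 and SMAD3. Follistatin wraps around the ligands and keeps them from their receptors, and in skeletal muscle myostatin restrains growth, so that animals without it have enlarged muscles.

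Values are RPKM, reads scaled to the length of the gene and to the read total of the library. The whole reads behind them were recovered from the values, and library totals ran from 20740258 to 28827897 reads. The labels do not say whether libraries of a group came from separate fetuses or litters, so p-values measure only the spread between these libraries, which may be technical. Pairs of values follow the order Em2, Em4 for WT and Em3, Em4 for Notch2 cKO. Notch1 itself was at 2.33 RPKM in the Notch1 cKO library, its lowest level, while WT had 7.26 and 13.5 and Notch2 cKO 11.8 and 8.39. Notch2 was at 2.40 and 4.17 RPKM in WT, and at 3.35 and 2.03 in the pair labelled Notch2 cKO. These ranges overlap, so the gene-level value does not check that label. The muscle genes Pax7 (4.15 to 13.4 RPKM), Myod1 (109 to 188) and Myog (944 to 1737) were present in each library. Of the endothelial markers, Cdh5 reached at most 0.133 RPKM while Egfl7 stood at 15.9 to 33.9, and the 10 in the list summed to 23.2 to 43.4. Of the blood-cell markers, Ptprc reached at most 0.145 RPKM while Cd68 stood at 5.13 to 9.64, and the 10 in the list summed to 13.3 to 30.8. Column names end in digits that resemble a date, whose meaning is not stated in the labels. Notch1 cKO Em8 shares them with Notch2 cKO Em3, and WT Em4 with Notch2 cKO Em4, while WT Em2 has its own.

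Mstn was the member with the highest mean level and the one that stood furthest apart between libraries on the absolute scale. It lies on mouse chromosome 1 (GRCm38, 53061640 to 53068079, plus strand, protein coding, ENSMUSG00000026100.6). Its promoter is shown because myogenic transcription factors such as MyoD and myogenin bind E-boxes, the motif CANNTG. The sequence is that of RefSeq on GRCm38.p6, chr1:53061390-53061689, plus strand, from 250 bases before the start site to 50 after it, with the E-boxes in capitals.

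Mstn promoter: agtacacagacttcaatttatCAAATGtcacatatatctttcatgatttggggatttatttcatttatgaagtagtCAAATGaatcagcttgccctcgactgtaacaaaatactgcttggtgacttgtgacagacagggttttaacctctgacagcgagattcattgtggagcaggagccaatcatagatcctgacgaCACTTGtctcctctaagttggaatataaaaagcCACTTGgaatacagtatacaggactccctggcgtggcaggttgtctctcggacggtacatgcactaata

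The window held 4 E-boxes, which begin 229, 174, 52 and 19 bases upstream of the start site. The distal 2 read CAAATG and the proximal 2 CACTTG. At least 1 E-box, searched on both strands, was present in 72.3% of the 32851 mouse promoter windows of this length, with a mean of 1.39 per window, so its presence alone does not set Mstn apart. The 6 letters TGGGAA, the core of the motif that the Notch effector RBPJ binds, were absent from the Mstn window on both strands and present in 25.6% of all windows. Of the 10 members, 8 had an entry in the promoter table, with 9 windows in all because Tgfbr1 has 2. Of these 9 windows, 4 held an E-box and 1, that of Fstl3, held TGGGAA. Fst and Smad7 had no window to search. A match or its absence describes these letters in this window and nothing more.

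Mstn stood at 57.0 RPKM in WT Em2, 47.9 in WT Em4, 42.6 in Notch1 cKO Em8, 63.5 in Notch2 cKO Em3 and 101 in Notch2 cKO Em4. Both Notch2 cKO libraries lay above both WT libraries, and the Notch1 cKO library lay below them. Between 2919 and 7828 reads stood behind each value, and the exact 95% Poisson interval of the highest ran from 99.0 to 104 RPKM. The intervals of the 5 libraries did not overlap. The nearest to each other were those of Notch1 cKO Em8 (41.1 to 44.2 RPKM) and WT Em4 (46.2 to 49.7). Without molecular identifiers, such intervals describe counting error alone. The group means were 52.5 ± 6.44 RPKM in WT (SD, n = 2) and 82.4 ± 26.7 in Notch2 cKO (SD, n = 2). The gap within the Notch2 cKO pair, 0.66 on the log2(RPKM + 1) scale, was larger than that of 89.8% of genes tested.

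**Figure D1:**
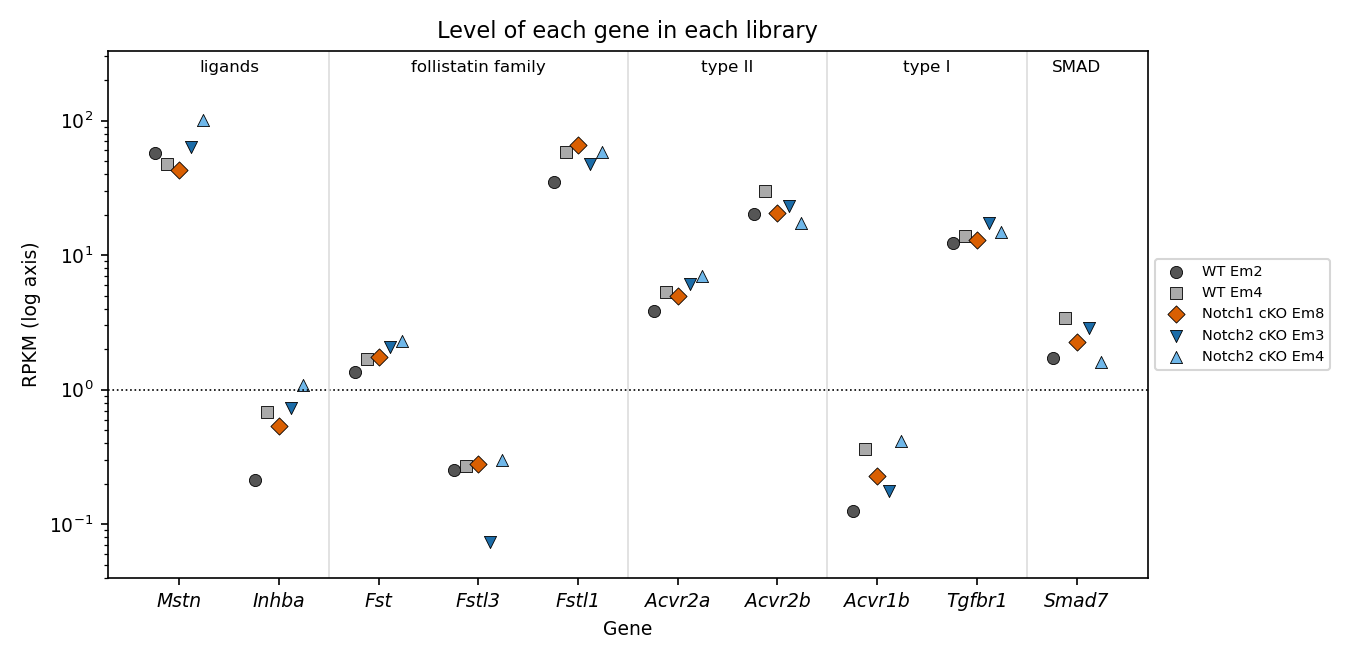
RPKM (log axis) of the 10 genes in each of the 5 libraries, 1 point per library, ordered by role, with a dotted line at 1 RPKM, the mean level a gene needed to be tested. Mstn, Fstl1, Acvr2b and Tgfbr1 lie above 10 RPKM in every library, while Fstl3 and Acvr1b lie under 0.5 RPKM in every library.

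Inhba encodes the subunit of activin A and was scarce. It stood at 0.214 RPKM in WT Em2 and 0.687 in WT Em4, at 0.538 in Notch1 cKO Em8, and at 0.725 and 1.09 in the Notch2 cKO pair. These values rest on 8, 24, 21, 23 and 48 reads in that order. The 95% Poisson intervals of WT Em4 (0.44 to 1.02 RPKM) and Notch2 cKO Em3 (0.46 to 1.09) overlapped almost wholly, so the order of those libraries is not readable at this depth, whereas WT Em2 (0.0925 to 0.422) lay apart from both. Within a library Mstn was 69.8 to 266 times as high as Inhba per length, with the highest ratio in WT Em2, where only 8 Inhba reads were counted.

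Fst, which encodes follistatin, was low in each library. It stood at 1.35 and 1.68 RPKM in the WT pair, 1.74 in Notch1 cKO Em8, and 2.06 and 2.30 in the Notch2 cKO pair, from 77 to 155 reads. Both Notch2 cKO values lay above both WT values, but the Poisson interval of Notch2 cKO Em3 (1.68 to 2.51 RPKM) overlapped that of WT Em4 (1.35 to 2.07). Fstl3, a follistatin relative that also binds activin and myostatin, was near the limit of detection, at 0.252 and 0.269 RPKM in WT, 0.281 in Notch1 cKO, and 0.0741 and 0.302 in the Notch2 cKO pair. The value of Notch2 cKO Em3 is 3 reads, with an interval from 0.0153 to 0.216 RPKM, and the other libraries had 12 to 17. Fst exceeded Fstl3 in all 5 libraries, by 5.36 to 27.9 times per length.

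Fstl1 encodes a secreted glycoprotein that shares the follistatin domain and is made by many mesenchymal cells. It was as abundant as Mstn, at 35.1 and 58.3 RPKM in the WT pair, 66.1 in Notch1 cKO Em8, and 47.8 and 58.6 in the Notch2 cKO pair. The highest value was that of Notch1 cKO, and the Notch2 cKO pair lay within the span of the WT pair except that Em4 lay marginally above WT Em4. The WT pair differed by 0.72 on the log2(RPKM + 1) scale, more than 91.1% of genes tested. Mstn exceeded Fstl1 in 3 of 5 libraries, so these leading members cannot be ranked.

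Among the type II receptors, Acvr2b exceeded Acvr2a in every library. Acvr2b stood at 20.3 and 29.8 RPKM in the WT pair, 20.6 in Notch1 cKO Em8, and 23.2 and 17.3 in the Notch2 cKO pair. Its groups overlapped, and WT Em4 was highest. Acvr2a stood at 3.85 and 5.35 RPKM in WT, 4.96 in Notch1 cKO Em8, and 6.10 and 7.03 in the Notch2 cKO pair. Here both Notch2 cKO libraries lay above both WT libraries, and the Notch1 cKO library lay between the WT values. The ratio of Acvr2b to Acvr2a per length was 5.26 and 5.56 in WT, 4.16 in Notch1 cKO, and 3.80 and 2.46 in Notch2 cKO. All 3 knockout libraries were thus below both WT libraries in this ratio. Acvr2b over Tgfbr1 had this trait too, while Mstn over Fst, Mstn over Fstl1 and Tgfbr1 over Acvr1b did not. How often pairs of genes separate in this way was not counted. The smallest p that an exact permutation of 2 WT and 2 Notch2 cKO libraries allows is 0.333, and no ratio was tested. Read numbers were closer than RPKM, with 822 to 1163 for Acvr2b and 534 to 1151 for Acvr2a, because the gene length behind the values was 1710 bases for Acvr2b and 5681 for Acvr2a. The GENCODE M21 exons of Acvr2b cover 3928 bases, so the Acvr2b level also depends on the shorter gene model of the deposited values. Other members had shorter models too, among them Inhba (1529 of 6390 bases) and Fst (2337 of 4589). Their levels, and the ratios of Mstn to them, carry the same limit.

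Among the type I receptors the contrast was larger. Tgfbr1, which encodes the TGF-beta receptor ALK5 that myostatin can also use, stood at 12.3 and 13.8 RPKM in WT, 12.9 in Notch1 cKO Em8, and 17.3 and 14.8 in the Notch2 cKO pair. Across all 5 libraries its highest value was 1.41 times its lowest, the smallest spread of any member. Acvr1b, the activin receptor ALK4, stood at 0.125 and 0.36 RPKM in WT, 0.227 in Notch1 cKO Em8, and 0.177 and 0.413 in the Notch2 cKO pair, on 10 to 39 reads. Per length Tgfbr1 was 35.8 to 98.5 times as high as Acvr1b, with a median of 57.0. Acvr1c, the type I receptor ALK7 and the remaining one for this branch, was at most 0.368 RPKM, in Notch2 cKO Em3.

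**Figure D2:**
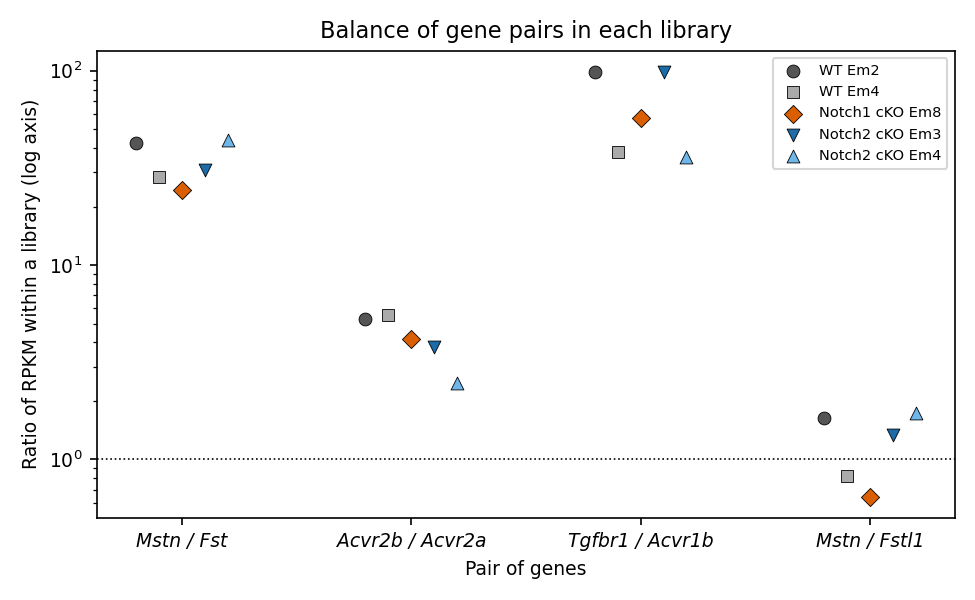
Ratio of RPKM of 4 gene pairs within each library (log axis), 1 point per library, with a dotted line where both genes are equal. Acvr2b over Acvr2a runs from 5.56 in WT Em4 down to 2.46 in Notch2 cKO Em4, and Tgfbr1 exceeds Acvr1b at least 35.8 times in every library.

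Smad7 encodes an inhibitory SMAD that is switched on by TGF-beta signals and blocks the type I receptors in turn. It stood at 1.72 and 3.42 RPKM in the WT pair, 2.26 in Notch1 cKO Em8, and 2.88 and 1.61 in the Notch2 cKO pair. The WT and Notch2 cKO pairs overlapped, and the gap within the WT pair was larger than that of 90.4% of genes tested.

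By mean RPKM over the 5 libraries the order was Mstn (62.5), Fstl1 (53.2), Acvr2b (22.2), Tgfbr1 (14.2), Acvr2a (5.46), Smad7 (2.38), Fst (1.83), Inhba (0.651), Acvr1b (0.26) and Fstl3 (0.235). The order of Fstl1, Acvr2b, Tgfbr1, Acvr2a and Smad7 among themselves held in all 5 libraries, with no overlap of the ranges of neighbours. Mstn and Fstl1, Smad7 and Fst, Inhba and Acvr1b, and Acvr1b and Fstl3 had overlapping ranges. Of all named genes, Mstn ranked 1719th and Fst 10300th. The library kit does not mark strand, so reads of a gene and of an antisense gene over it cannot be told apart. Such genes overlap Inhba, Fst, Fstl3, Acvr2a and Acvr2b in GENCODE M21.

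Notch2 cKO was set against WT to see how these transcripts stand once Notch2 is targeted in Pax7-lineage cells. None of the 7 members with a mean of at least 1 RPKM (all but Inhba, Acvr1b and Fstl3) passed the test. The test was limma on log2(RPKM + 1) over 11543 genes, with Benjamini-Hochberg adjustment and a threshold of 0.05. Mstn came closest, with a log2 fold change of 0.61 (SE 0.27, limma adjusted p = 0.556, higher in 2 of 2 libraries). Its unadjusted p from limma was 0.0238, which was under 0.05 in 7.63% of all genes. Acvr2a followed at 0.44 (SE 0.32, limma adjusted p = 0.773), and Fst at 0.34 (SE 0.31, adjusted p = 0.823). The values of Tgfbr1 and Fstl1 were 0.28 and 0.22, and those of Smad7 and Acvr2b −0.12 and −0.28, with limma adjusted p from 0.842 to 0.948.

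Limma voom on the recovered reads called no gene at all in this comparison, so it could not single out a member. In the main fit 0.537% of all genes passed (0.355% higher and 0.182% lower), so none among 7 is near that background. The log2 fold change was above 0 for 5 of the 7 members and for 68.1% of all genes. By position alone, both Notch2 cKO libraries lay above both WT libraries for 4 of the 7 members (Mstn, Fst, Acvr2a and Tgfbr1) and for 28.3% of all genes, and below for none against 9.44%. The median log2 fold change of the 7 was 0.28, and that of all genes 0.14. The 62 calls over all genes were 41 higher and 21 lower. That split was 41 and 40 after median-of-ratios scaling, 26 and 2 after rescaling to the same sum, 3 and 1 after quantile normalization, and 5 and 0 after removal of the gene length trend. Those scalings moved the median of all genes to −0.04, 0.28, 0.00 and 0.11. Relative to the median, Mstn was at 0.47 as deposited, 0.44 after median-of-ratios scaling, 0.50 after rescaling, 0.59 after quantile normalization and 0.37 without the length trend. Acvr2b relative to the median was at −0.42, −0.44, −0.40, −0.45 and −0.40 in the same order.

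The 95% intervals show how much difference these libraries leave room for. In Notch2 cKO against WT the interval of Mstn, not adjusted for the number of genes, ran from 0.08 to 1.13 on the log2 scale. That of Tgfbr1 ran from −0.30 to 0.86, and that of Fst from −0.27 to 0.95. These intervals use the spread that limma takes mostly from other genes, whereas the Mstn gap within the Notch2 cKO pair was 0.66. Without Notch2 cKO Em3 the Mstn value was 0.94, and without Notch2 cKO Em4 it was 0.28. Between Notch2 cKO Em4 and WT Em4, which share their digits, it was 1.06 (the former minus the latter), with no test. The same difference was −0.75 for Acvr2b and −0.76 for Smad7. Each of these depends on Notch2 cKO Em4, so the digits and that library cannot be told apart.

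**Figure D3:**
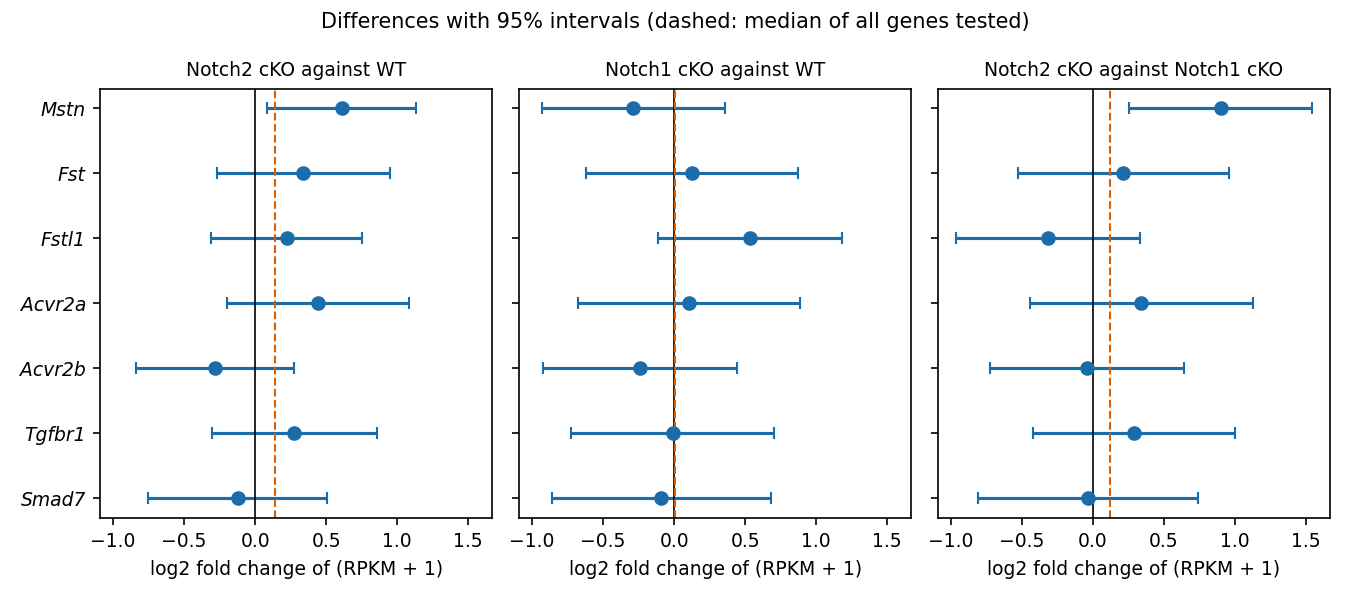
Log2 fold change of (RPKM + 1) of the 7 tested members in each comparison, with 95% intervals from limma's moderated spread, not adjusted for the number of genes. The intervals of 6 members include 0 in each panel, and that of Mstn lies above 0 in both comparisons of Notch2 cKO; no member passed after adjustment.

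The 3 members below 1 RPKM were tested only when the filter was lifted. With it lifted no gene at all passed in any comparison, so their not passing says nothing particular about them. In Notch2 cKO against WT, on the log2(RPKM + 1) scale, Inhba was at 0.41 (SE 0.23, limma adjusted p = 0.73). Acvr1b was at 0.06 (SE 0.15, limma adjusted p = 0.881) and Fstl3 at −0.09 (SE 0.12, adjusted p = 0.79). Adding 1 to such low values shrinks any fold change, so these numbers say little about ratios.

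For Notch1 the same question rests on 1 knockout library, whose spread is assumed to equal that of the other groups. No member passed, in limma or in voom, while 0.0693% of all genes did (0.0433% higher and 0.026% lower). Fstl1 had the largest difference, at 0.54 (SE 0.33, limma adjusted p = 1), and its 95% interval ran from −0.11 to 1.19. It was 0.18 without WT Em2, where Acvr2b (−0.51) and Smad7 (−0.44) were further from 0, and 0.90 without WT Em4. Mstn was at −0.29 (SE 0.32, limma adjusted p = 1, below both WT libraries), with an interval from −0.93 to 0.36. The other 5 lay between −0.24 for Acvr2b and 0.13 for Fst. The Notch1 cKO library lay above both WT libraries for 2 of the 7 members, Fst and Fstl1, against 24.3% of all genes, and below both for Mstn alone, against 26.1%. None of the 7 had an unadjusted p under 0.05 in limma, against 1.85% of all genes.

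Notch2 cKO was also set against Notch1 cKO directly, and Mstn was again the member furthest from 0. Its log2 fold change was 0.90 (SE 0.32, limma adjusted p = 0.32, higher in 2 of 2 libraries). Its unadjusted p was 0.00675 in the same limma fit, where 8.66% of all genes were under 0.05. Between Notch2 cKO Em3 and Notch1 cKO Em8, which share their digits, the Mstn difference was 0.57 (the former minus the latter). No other member exceeded 0.34 in size, the value of Acvr2a, and 0.485% of all genes passed (0.277% higher and 0.208% lower). Voom called no member. The Notch2 cKO pair lay above the Notch1 cKO library for 4 of the 7 members against 47.7% of all genes, and below it for 1 against 25.2%. The signs of Acvr2b (−0.04) and Smad7 (−0.03) turned when libraries were rescaled to the same sum. These comparisons share libraries with those against WT, so the Mstn values are not separate evidence.

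Sums of several marker lists differed between libraries along with Mstn or Fstl1, but not those of every list. The 14 myogenic progenitor markers summed to 426 and 581 RPKM in WT, 484 in Notch1 cKO, and 496 and 598 in Notch2 cKO. The 10 pericyte and smooth muscle markers summed to 611 and 691 RPKM in WT, 750 in Notch1 cKO, and 772 and 824 in Notch2 cKO. Neither list had the library order of Mstn or of Fstl1. The summed level of 18 markers of differentiating muscle, all of them detected in every library, was 5049 RPKM in Notch1 cKO Em8, 6003 in WT Em4, 6562 in WT Em2, 8107 in Notch2 cKO Em3 and 8217 in Notch2 cKO Em4. This is the order of the libraries by Mstn. Actc1, the most abundant of the 18 and the largest part of the sum, had it too, at 1995, 2352, 2964, 3569 and 3591 RPKM. Not every marker did: Myog was at 1053 RPKM in WT Em2 and 1272 in WT Em4. Acta1 was at 186 RPKM in Notch1 cKO Em8, above the 129 and 145 of WT. The Mstn to Myog ratio spanned 0.0377 to 0.0583 and did not separate the groups, with 0.0541 and 0.0377 in WT, 0.0451 in Notch1 cKO, and 0.0384 and 0.0583 in Notch2 cKO. The 16 interstitial fibroblast markers, all of them above 0 in every library, summed to 219 and 366 RPKM in the WT pair, 469 in Notch1 cKO, and 313 and 498 in the Notch2 cKO pair. Fstl1 was lowest in WT Em2 as well, and highest in Notch1 cKO Em8. The 14 tendon and cartilage markers, none at 0, summed to 233 RPKM in Notch2 cKO Em4 and to 54.4 to 82.7 elsewhere. In Notch2 cKO Em4, Mstn, Inhba, Fst, Acvr2a, Acvr1b and Fstl3 were highest as well, while Acvr2b and Smad7 were lowest. Scx, the most abundant of the 14 by mean, did not follow the sum. It was at 31.3 RPKM there, 30.5 and 31.0 in WT, 37.9 in Notch1 cKO and 34.2 in Notch2 cKO Em3. The sum of the 8 erythroid markers found ran the other way from Mstn, with 981 and 1224 RPKM in WT, 1749 in Notch1 cKO, and 521 and 450 in the Notch2 cKO pair. Not every marker followed that sum: Hbb-y had a log2 fold change of −1.50 in Notch1 cKO against WT. Of the 6 tested, 3 passed lower in Notch2 cKO against WT, where 0.182% of all genes did. They were Hba-a2 (log2 fold change −1.34, limma adjusted p = 0.00459), Hba-a1 (−1.16, adjusted p = 0.018) and Hbb-b1 (−1.11, adjusted p = 0.0316). The 8 adipocyte markers, none at 0, summed to 74.8 and 41.7 RPKM in WT, 69.8 in Notch1 cKO, and 115 and 94.7 in the Notch2 cKO pair. Among them Adipoq (log2 fold change 1.24, limma adjusted p = 0.0349) and Cidea (1.26, adjusted p = 0.0316) passed in Notch2 cKO against WT. Of all genes, 0.355% passed higher there. The 12 dissociation and stress genes, none at 0, summed to 2226 and 2604 RPKM in WT, 2892 in Notch1 cKO, and 3922 and 2601 in the Notch2 cKO pair. The heat shock genes Hspa1a (2.68, limma adjusted p = 4.59e-05) and Hspa1b (2.86, adjusted p = 5.41e-06), near-identical copies whose reads may be split between them, passed in the same comparison. Markers of the interstitial fibroblast, tendon and cartilage, erythroid, and dissociation and stress lists also passed in comparisons with the 1 Notch1 cKO library. Of these, the fibroblast marker Mfap5 had a log2 fold change of 1.76 in Notch1 cKO against WT. The genes that passed, and Myog, Acta1 and Hbb-y as exceptions, were named after their values were seen. The part of these cells and of stress in the values was not tested, and in sorted bulk RNA more cells of a type and more RNA per cell cannot be told apart.

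**Figure D4:**
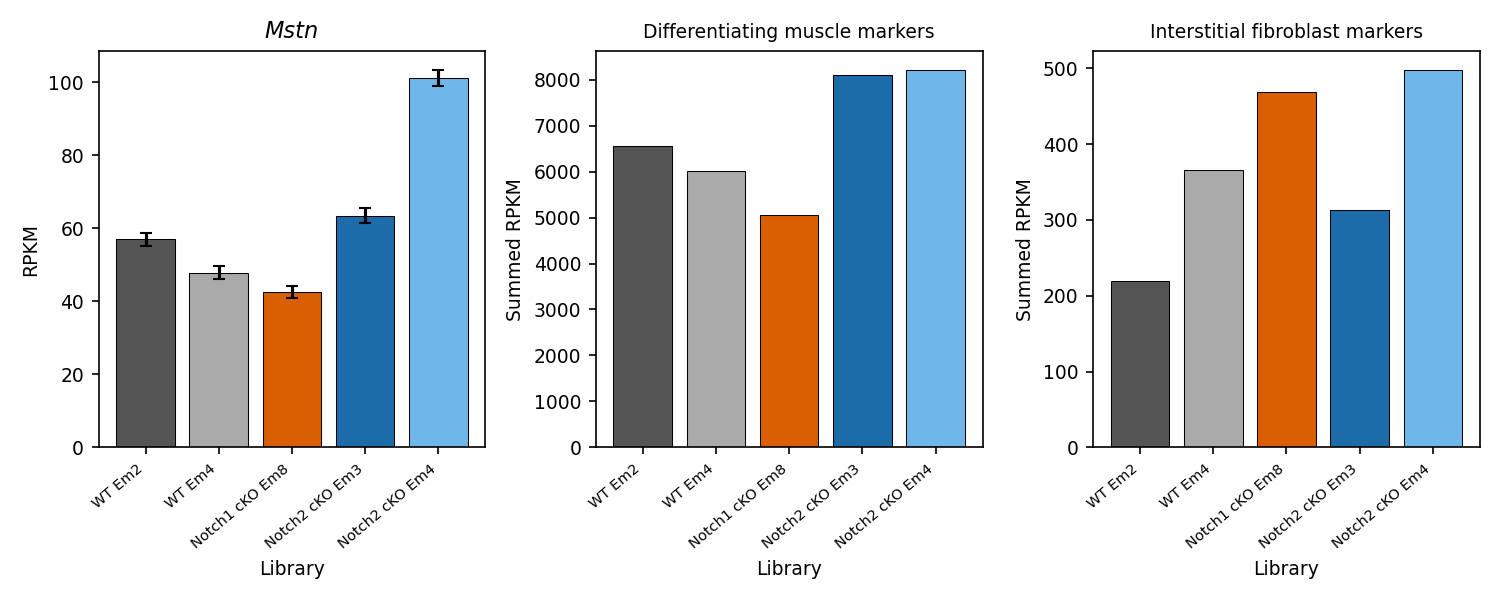
Mstn in RPKM (left, bars with exact 95% Poisson intervals), and the summed RPKM of 18 differentiating muscle markers (centre) and of 16 interstitial fibroblast markers (right), 1 bar per library. Mstn runs from 42.6 RPKM in Notch1 cKO Em8 to 101 in Notch2 cKO Em4, in the library order of the muscle marker sum, whose largest part is Actc1.

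Genes with profiles close to Mstn and Fst were sought above a mean of 5 RPKM, by the largest gap in any of the 5 libraries between centred log2(RPKM + 1) values. Closest to Mstn among 7173 genes were Fignl1 (0.07), Pnpt1 (0.09), Vps26a (0.09), Cul2 (0.09) and Pdha1 (0.10). Fignl1, for example, stood at 13.9 and 12.1 RPKM in WT, 10.1 in Notch1 cKO, and 15.4 and 24.0 in Notch2 cKO. Closest to Fst among 7174 genes were Tatdn3 (0.04), Vhl (0.05), Kbtbd2 (0.05), Stim2 (0.05) and Ckap2l (0.06). Fst had a mean of 1.83 RPKM, so adding 1 shrinks its changes more than theirs, and the likeness holds on this scale only. All profiles come from the same 5 libraries and so share their depth and composition, whose part in the likeness was not tested.

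The rest of the SMAD2 and SMAD3 branch was read from 54 further genes, of which 30 had a mean of at least 1 RPKM. In Notch2 cKO against WT, 1 of the 30 passed, higher, and none lower, where 0.537% of all genes passed. Their median log2 fold change was 0.07 against 0.14 for all genes, with 20 of 30 above 0 against 68.1% of all genes. In Notch1 cKO against WT the median was 0.27 against 0.01, with 23 of 30 above 0 against 51.5%. In Notch2 cKO against Notch1 cKO it was −0.25 against 0.12, with 11 of 30 above 0 against 61.8%. That comparison shares both knockout groups with the others. Limma and voom called none of the 30 in these last comparisons. At an unadjusted p under 0.05 limma had 2 of 30 in each, against 1.85% of all genes for Notch1 cKO and WT and 8.66% for the knockouts.

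The called gene was Ccn2, which encodes connective tissue growth factor, a known target of TGF-beta and also of YAP signalling. It stood at 0.511 and 0.71 RPKM in WT, 1.43 in Notch1 cKO Em8, and 2.69 and 3.03 in the Notch2 cKO pair, on 30, 39, 88, 134 and 210 reads. All 3 knockout libraries were above both WT libraries. In Notch2 cKO it rose by 1.26 on the log2(RPKM + 1) scale (SE 0.30, limma adjusted p = 0.0229, higher in 2 of 2 libraries), and in Notch1 cKO the value was 0.60 (SE 0.37, adjusted p = 1). The Notch2 cKO call held under 6 of 14 alternative settings, with limma adjusted p from 0.00962 to 0.73. Leaving out any 1 of the 4 libraries compared ended the call: the limma adjusted p was 0.603 without WT Em2, 0.0522 without WT Em4, and 0.0718 or 0.144 when Em3 or Em4 of Notch2 cKO was dropped. The log2 fold change in these 4 fits was 1.17 to 1.35. Limma voom on the recovered reads gave an adjusted p of 0.0652. The part of the marker lists above in the Ccn2 values was not tested.

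Of the 8 targets in the list, 5 were tested, and Ccn2 was the only one that passed. Pmepa1, a feedback inhibitor of SMAD signalling chosen after its values were seen, was at 5.22 and 6.16 RPKM in WT and 3.97 and 3.76 in Notch2 cKO (log2 fold change −0.46, limma adjusted p = 0.761). Cdkn1a, the cell cycle inhibitor p21 and the most abundant of the targets, stood at 303 and 343 RPKM in WT, 444 in Notch1 cKO, and 484 and 389 in Notch2 cKO (Notch2 cKO against WT 0.43, limma adjusted p = 0.754). Several other inputs also act on Cdkn1a.

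Among the ligand genes of this branch beyond the members, Tgfb2 was the most abundant, with 18.6 and 24.6 RPKM in WT, 28.7 in Notch1 cKO, and 22.1 and 15.6 in Notch2 cKO. Gdf11, the closest relative of Mstn and named after its values were seen, was at most 0.271 RPKM, on 6 to 12 reads. Mstn exceeded it 164 to 881 times per length, with the highest ratio in Notch2 cKO Em4, where only 6 Gdf11 reads were counted. Of the 11 ligand genes, 3 reached a mean of 1 RPKM. Among extracellular antagonists and latency proteins the most abundant were Dcn, the matrix proteoglycan decorin that can bind myostatin and TGF-beta, and Ltbp4, a latency protein for TGF-beta. Dcn stood at 30.7 and 40.7 RPKM in WT, 75.2 in Notch1 cKO, and 50.3 and 61.3 in Notch2 cKO, and had the largest difference of the list in Notch1 cKO (1.07, limma adjusted p = 0.424). Like Fstl1 it was lowest in WT Em2 and highest in Notch1 cKO Em8, and fibroblasts also express it. Ltbp4 stood at 8.79 and 21.6 RPKM in WT, 26.8 in Notch1 cKO, and 12.3 and 12.7 in Notch2 cKO, within the WT span.

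Of the shared machinery, Smad4, the common partner SMAD, was the most abundant at 29.7 to 43.4 RPKM, ahead of the receptor SMAD gene Smad2 at 8.17 to 12.1. Smad6, the inhibitory relative of Smad7, reached 2.09 RPKM. Tgfbr2, the type II receptor for TGF-beta itself, stood at 3.68 to 6.47 RPKM, and the co-receptor gene Tgfbr3 at 2.58 to 4.86. Bambi, a decoy receptor, was at 4.38 to 6.61 RPKM, and the ligand-activating protease gene Bmp1 at 5.95 to 12.47. The regulators Tgif1 (19.0 to 30.6 RPKM), Ppm1a (15.7 to 26.1) and Smurf2 (at least 7.59) exceeded the SMAD anchor gene Zfyve9, at most 1.27. In Notch2 cKO against WT, the tested genes of this group lay between −0.16 and 0.47 on the log2(RPKM + 1) scale, and none passed.

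**Figure D5:**
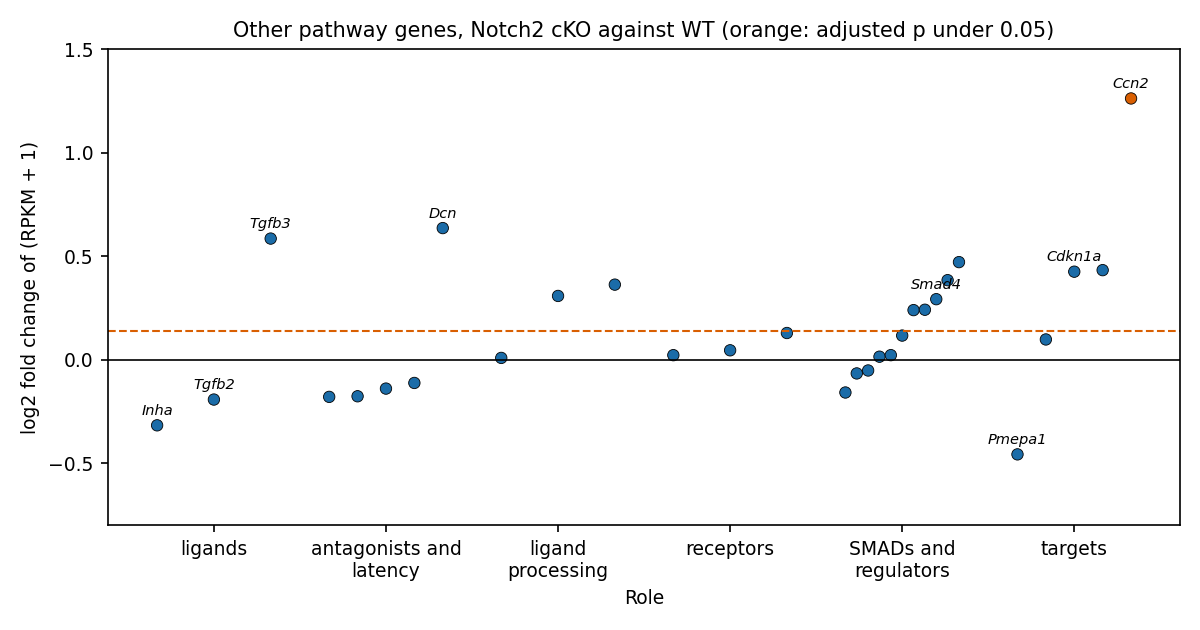
Log2 fold change of (RPKM + 1) in Notch2 cKO against WT of the 30 tested pathway genes that are not members, 1 point per gene by role, with a dashed line at the median of all genes (0.14). Ccn2, in orange, is the gene with an adjusted p under 0.05, at 1.26; the others lie between −0.46 and 0.64.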

How the data were processed

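Expression values are RPKM as the authors deposited them, per the file headers, in 27179 rows; 1306 rows without a gene name (2.19% to 3.07% of the RPKM sum of a library) were left out. Libraries were made with SMART-Seq v4, per the labels' protocols, a kit that does not mark strand. Per the submitters' processing notes, bcl2fastq 2.20.0 and mm10 were used; no aligner or counting tool is named in the labels. Columns name the group but no replicate number, and none was left unused. Whole reads and gene lengths were recovered from the spacing of the values. Lengths were whole, within 0.02 bases, for 98.3% of 16576 genes present in every library (4% by chance), and 98.1% of genes tested had reads. A 0 would allow 3 reads, which is 0.104 to 0.145 RPKM per kilobase.

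Differences were tested two-sided with limma 3.58.1 (R 4.3.3, trend, 2 residual and 103.8 prior degrees of freedom) on log2(RPKM + 1), a scale that understates changes of low genes, with 1 mean per group over all 5 libraries. Genes needed a mean of 1 RPKM. The script was tested on simulated data. Alternatives were other pseudocounts, filters and scalings, removal of the length trend, voom, no trend, and leaving out each library. Text names the members, the pathway genes that were called, most abundant in their role or most changed against WT, and the closest profiles. Members and lists were chosen with earlier results of these data known.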

Additional observations from a re-analysis of the deposited data

How the results depend on the processing

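No member passed in any of 3 comparisons under any of 15 alternative settings, though some of these settings called no gene at all. Of 295 member values, 284 kept their direction and 11 turned. Rescaling to the same sum turned Acvr2b (0.13) and Smad7 (0.089) in Notch2 cKO against Notch1 cKO. Leaving out libraries gave −0.24 to 0.16 and −0.32 to 0.25 there, with the turn without Notch2 cKO Em4. It gave −0.47 to 0.23 for Smad7 and −0.14 to 0.58 for Fstl1 in Notch2 cKO against WT; Smad7 turned without Notch2 cKO Em4 (0.16) or WT Em4, and Fstl1 without WT Em2. In Notch1 cKO against WT it gave −0.092 to 0.30 for Acvr2a, −0.51 to 0.026 for Acvr2b, −0.087 to 0.065 for Tgfbr1 and −0.44 to 0.26 for Smad7, with Acvr2a turning without WT Em2 and the others without WT Em4.

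Over all genes, the 62 calls of Notch2 cKO against WT became 0 with no filter (1050 at an unadjusted p under 0.05), 33 above 5 RPKM, 28 rescaled, 4 after quantile normalization, 0 in voom (786 unadjusted), 5 without the length trend, 36 without the variance trend, and 13 (without WT Em2) to 278 (without WT Em4). The 8 calls of Notch1 cKO against WT became 15 with a pseudocount of 0.1, 0 with no filter (301 unadjusted), 3 rescaled, 22 with median-of-ratios scaling, 1 after quantile normalization, 3 in voom, 0 without the length trend (252 unadjusted), and 1 to 6 without single libraries. The 56 calls of Notch2 cKO against Notch1 cKO became 0 with no filter (983 unadjusted), 27 rescaled, 86 with median-of-ratios scaling, 13 after quantile normalization, 13 in voom, 0 without the length trend (888 unadjusted), 26 without the variance trend, and 39 to 59 without single libraries. The 1 pathway call, Ccn2, became 0 with no filter, above 5 RPKM, after quantile normalization, in voom and without the length trend, and 0 to 1 without single libraries. Above 5 RPKM Ccn2 was no longer tested; the other causes were not tested. No paired analysis was possible because the columns carry no replicate numbers. Depth limits Inhba, Acvr1b and Fstl3, with 3 to 48 reads.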
